A study of Rattus norvegicus with 22 samples.

Results

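Loss of the gonads was described here as a single effect that testes and ovaries have in common. All 22 libraries of the count table entered 1 fit with a term for gonad type, testis or ovary, and 1 common term for removal, so that each gene has 1 log2 fold change of rats without gonads over intact rats. The members are the genes called for the common term, at an adjusted p under 0.1 (Benjamini-Hochberg over all genes tested). They were 2051 of 15562 genes tested, or 13.2%, in a table of 32883 genes. The rats were young adult Sprague-Dawley rats, 3 to 4 months old, and 1 library of total RNA was sequenced per rat from ventral cervical spinal cord, C3 to C6, after perfusion with saline. The 5 intact males and 6 intact females kept their gonads, while both testes of 5 GDX males and both ovaries of 6 OVX females had been taken out 2 weeks before the tissue was collected. Operated rats received Buprenorphine SR-LAB against pain, and no sham operation is described. Surgery and analgesic cannot be told apart from the absence of the gonads in these groups, and circulating hormone levels were not analysed here.

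Testes and ovaries release testosterone, estradiol and progesterone, which pass from the blood into the cord and act on nuclear receptors that bind DNA as pairs and change transcription. Their absence also lifts the feedback that restrains the gonadotropins of the pituitary. The ventral cervical cord holds the motor neurons of the diaphragm, shoulder and arm together with interneurons, glia, a dense bed of capillaries and, on its surface, the meninges.

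Total counts ran from 13008232 to 15558910 in intact males, from 14632278 to 16955037 in GDX males, from 13374274 to 17530586 in intact females and from 12371756 to 17571887 in OVX females. Rats without gonads averaged 15193788 counts and intact rats 14716853, and the mean difference within gonad type was 543851 counts (exact permutation test, two-sided p = 0.405). These are reads without molecular identifiers. The rats are the replicates, so all p-values rest on the spread between rats. The Y-linked genes Kdm5d and Eif2s3y had 0 counts in the 12 females and 30.7 to 39.6 and 36.1 to 50.5 CPM (counts scaled to a common library total) in the 10 males. The Y-linked Ddx3y did not separate the sexes, with 0.284 to 1.71 CPM in males and 0.438 to 1.56 CPM in females. Ddx3y has close paralogs, and how shared reads were counted is not known. Markers of the labelled tissue were present in every library. The acetylcholine-synthesizing enzyme of motor neurons, Chat, was at 25.3 to 60.6 CPM, the neuronal splicing factor Rbfox3 at 35.4 to 58.2 CPM, the astrocyte filament Gfap at 2727 to 4495 CPM and the myelin protein Mbp at 10718 to 14287 CPM. Of the motor neuron list 13 of 14 genes were tested, all but Mmp9, whose highest count in a library was 13. All 12 general neuron markers, all 12 astrocyte markers and all 12 oligodendrocyte markers were tested.

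Libraries differed in fragment size, and this difference runs along with removal. The average input fragment size in the study's sample tables falls into a short and a long class, and the short class holds all 11 libraries of rats without gonads. Among intact rats it holds 4, males 2 and 5 as well as females 1 and 4. The long class thus consists of 7 intact rats. The common term was therefore fitted again with class as a further term, and again within the 15 short-fragment libraries, where 11 rats without gonads were compared with 4 intact rats. With the class term 163 genes were called (82 higher, 81 lower; 1.05% of 15562), and within the short class 81 genes (59 higher, 22 lower; 0.505% of 16053). Of the 2051 members, 150 were also called with the class term and 77 within the short class. These fits reuse the rats that chose the members, so a kept sign is expected of them: 2048 members kept it with the class term, 1376 of them at an unadjusted p under 0.05, and 2048 kept it within the short class, 1303 of them at an unadjusted p under 0.05. The effect with the class term was 0.989 times the effect without it for the median gene called higher and 0.917 times for the median gene called lower. Class and removal run together in these libraries, and values with the class term are given beside the results that follow for most lists and leading genes.

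**Figure D1:**
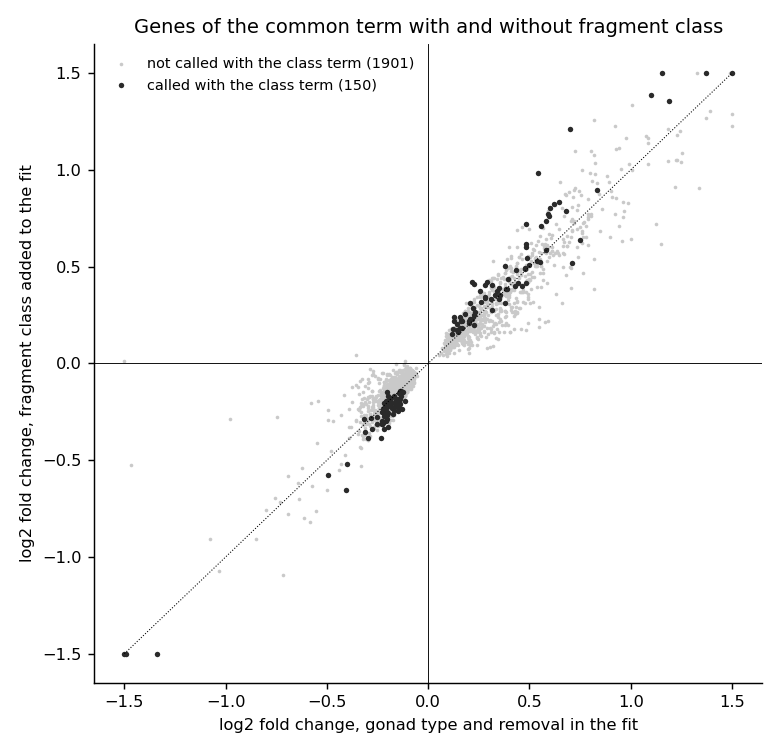
Log2 fold change of rats without gonads over intact rats for the 2051 members, with gonad type and removal in the fit (x axis) and with fragment class added (y axis), 1 point per gene, dotted line at equality; values beyond 1.5 in size are drawn at the edge. Most points lie near the line, and black points are the 150 genes that were also called with the class term.

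Removal of the gonads was followed by many small changes, with larger changes among the genes that were higher. Of the members 934 were higher (6.00% of all genes tested) and 1117 lower (7.18%). The median log2 fold change was 0.29 among the former and -0.16 among the latter, against 0.00 over all genes tested. A log2 fold change of at least 1 in size was found in 36 genes called higher and 8 called lower. An adjusted p under 0.01 was reached by 314 genes (2.02% of all genes tested), 129 higher and 185 lower, and an adjusted p under 0.001 by 8 genes, 7 of them higher. Gene lists are described by the number of genes called and by their median. Where calls of a list are given in 1 direction, edgeR called 0 genes of it in the other, with 0 at an unadjusted p under 0.05 and 0 by DESeq2 unless other numbers follow.

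The male and the female contrast share no rats, but the common term that chose the members pools both, so a shared sign among members is largely fixed by that choice. Of the 2051 members 2044 changed in the same direction in males and females. At an unadjusted p under 0.05 in each gonad type, 276 genes were higher in both (1.77% of all genes tested) and 345 lower in both (2.22%), while 38 of all genes tested passed that level in both with opposite signs. Another 1099 members passed it in males only, 297 in females only and 34 in neither. The change was larger in males for 1651 members. Median log2 fold changes of the genes called higher were 0.37 in males and 0.19 in females, and those of the genes called lower -0.21 and -0.11. A difference between gonad types, tested as an interaction, reached an adjusted p under 0.1 for 4 members and for 18 of all genes tested, so a larger change in males is a description for the other members.

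**Figure D2:**
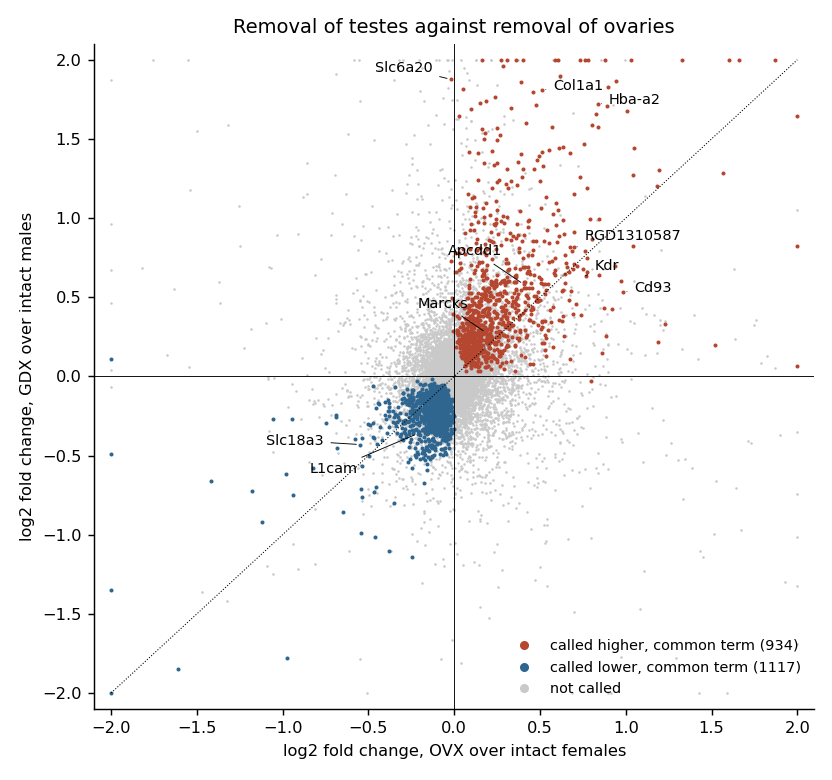
Log2 fold change of GDX over intact males (y axis) against OVX over intact females (x axis) for the 15562 genes tested, 1 point per gene, with the 934 genes called higher and the 1117 called lower in the common term coloured and values beyond 2 in size drawn at the edge. Most called genes lie in the lower left and upper right, and 1651 of the 2051 had the larger change in males.

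Groups were also compared by rank. In 7 genes every rat without gonads lay above every intact rat of the same gonad type, in males and in females (0.0450% of all genes tested), and in 4 genes every one lay below (0.0257%). These counts rest on TMM scaling and on single rats: CPM without TMM gave 4 higher and 1 lower, and leaving out 1 rat gave up to 22 higher (without OVX female 5) and 40 lower (without intact female 1). All 11 were also called. The genes with higher levels were Marcks, Mapk3, Gnai2, Klf3, Kif23, Parp10 and RGD1310587, and the genes with lower levels included L1cam, Rtn3 and Fads6. Klf3, Kif23, Parp10, Rtn3 and Fads6 were chosen after their values were seen. Kif23, a kinesin that builds the midbody between dividing cells, was at 1.91, 1.48, 1.36, 1.05 and 1.38 CPM in intact males and 2.19, 2.43, 3.92, 1.92 and 2.67 CPM in GDX males, and at 0.984 to 1.58, median 1.29, in intact and 1.65 to 3.04, median 2.15, in OVX females (log2 fold change 0.83, 95% interval 0.52 to 1.15, adjusted p 0.00274). The transcriptional repressor Klf3 (0.17, adjusted p 0.00404, 11 of 11) and the ADP-ribosyltransferase Parp10 (0.42, adjusted p 0.00570, 11 of 11) were higher by less, in brackets the log2 fold change, the adjusted p and the number of rats without gonads on that side of the intact mean of their gonad type. The reticulon of the endoplasmic reticulum Rtn3 (-0.12, adjusted p 0.00355, 11 of 11) and the putative desaturase Fads6 (-0.21, adjusted p 0.0105, 11 of 11) were lower. Once class was in the fit, log2 fold changes were 0.90 for Kif23 (adjusted p 0.0792), 0.16 for Klf3, 0.31 for Parp10, -0.09 for Rtn3 and -0.27 for Fads6.

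Among the genes with the smallest p of those higher in both gonad types, Kdr is the main signalling receptor for vascular endothelial growth factor on endothelial cells. Its level was 10.8, 14.5, 9.15, 13.98 and 9.52 CPM in intact males, 19.99, 16.8, 16.9, 21.0 and 15.7 CPM in GDX males, 10.4 to 16.05, median 12.5, in intact females and 16.01 to 26.4, median 22.5, in OVX females (log2 fold change 0.71, 95% interval 0.50 to 0.92, adjusted p 0.000557). In males the groups did not overlap, and in females only the lowest OVX rat and the highest intact rat met. On the side of the change lay 5 of 5 GDX males and 6 of 6 OVX females, counted against the intact mean. The class term lowered the change to 0.52 (adjusted p 0.0804).

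Apcdd1, a membrane protein that binds Wnt ligands and blocks their signal, was at 16.02, 15.5, 13.5, 17.1 and 14.9 CPM in intact and 23.7, 23.2, 20.9, 24.1 and 23.5 CPM in GDX males, and at 12.4 to 21.1, median 16.9, in intact and 19.97 to 25.7, median 22.9, in OVX females (log2 fold change 0.48, 95% interval 0.34 to 0.63, adjusted p 0.000557). All GDX males were above all intact males, and 4 of 6 OVX females above all intact females. Marcks, an actin-binding substrate of protein kinase C at the plasma membrane, was at 93.7, 96.5, 92.7, 94.8 and 85.9 CPM in intact males and 113, 111, 107, 119.6 and 111 CPM in GDX males, and at 87.2 to 99.95, median 94.4, in intact and 101 to 112, median 106, in OVX females (log2 fold change 0.23, 95% interval 0.16 to 0.29, adjusted p 0.000533). Gnai2, an inhibitory G protein subunit that lowers cyclic AMP, was at 191, 180.1, 186, 185 and 183 CPM in intact and 196, 223, 229, 229 and 236 CPM in GDX males, and at 191 to 217, median 209, in intact and 223 to 231, median 225, in OVX females (log2 fold change 0.20, 95% interval 0.13 to 0.27, adjusted p 0.00148). Marcks and Gnai2 showed no overlap in either gonad type, as did the kinase ERK1, Mapk3 (0.20, adjusted p 0.00141, 11 of 11). RGD1310587, whose function is not known here, was at 8.15, 8.59, 7.26, 8.23 and 7.03 CPM in intact and 13.5, 15.2, 14.5, 14.3 and 11.5 CPM in GDX males, and at 5.67 to 12.8, median 9.56, in intact and 13.2 to 17.5, median 15.3, in OVX females (log2 fold change 0.75, 95% interval 0.55 to 0.95, adjusted p 0.000408). Its groups stood apart in both gonad types, as the plot of levels by rat shows. After class was added these changes were 0.41 for Apcdd1, 0.20 for Marcks, 0.22 for Gnai2, 0.21 for Mapk3 and 0.64 for RGD1310587, with adjusted p from 0.0594 to 0.0615.

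**Figure D3:**
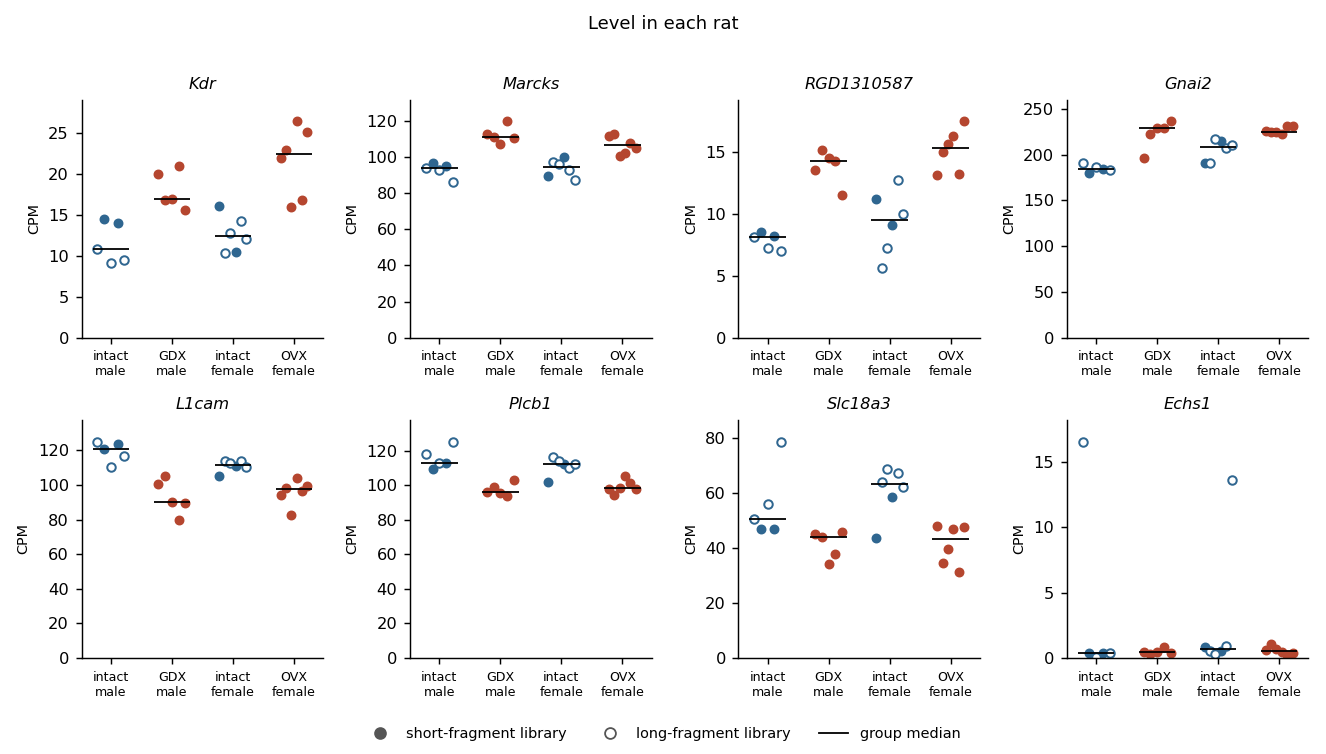
Level in CPM (y axis) of 8 genes in each of the 22 rats, by group (x axis), blue for intact rats and red for rats without gonads, filled points for short-fragment and open points for long-fragment libraries, and a line at the group median. Marcks, RGD1310587, Gnai2 and L1cam show no overlap between intact rats and rats without gonads of the same sex, and Echs1 is high in 2 intact rats alone.

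Myosin light chain kinase, Mylk, drives smooth muscle contraction and was higher in 5 of 5 GDX males and 6 of 6 OVX females (log2 fold change 0.23, 95% interval 0.16 to 0.30, adjusted p 0.000641). Caldesmon, Cald1, restrains actomyosin and was at 38.6 to 44.5 CPM in intact males against 56.7 to 67.3 CPM in GDX males, with a smaller gap in females, 45.5 to 60.5 against 57.1 to 71.9 CPM (log2 fold change 0.38, 95% interval 0.26 to 0.50, adjusted p 0.00116). Zfp36l1, which marks AU-rich messenger RNAs for decay, was higher by 0.31 (adjusted p 0.000957, all 11 rats without gonads), and the mitochondrial carrier Ucp2 by 0.39 (adjusted p 0.00116, all 11). Rassf9, a Ras-association protein of recycling endosomes, was higher in 5 of 5 GDX males and 5 of 6 OVX females (log2 fold change 0.46, 95% interval 0.31 to 0.61, adjusted p 0.00116). AABR07073181.1, a gene model without an assigned function here, was higher in all 11 (log2 fold change 0.48, 95% interval 0.35 to 0.61, adjusted p 0.000408). Leaving out any 1 rat left the adjusted p of these 6 genes at no more than 0.00312. All 12 of the leading higher genes were also called with the class term.

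Endothelial cells line the vessels of the cord and form the barrier between blood and tissue. All 17 endothelial markers tested were called higher, against 6.00% of all genes tested, with a median log2 fold change of 0.48 (0.49 in males and 0.43 in females; 0.50 with the class term, 0.51 among short-fragment libraries and 0.54 with the meningeal term). Of these 17 genes 13 had an unadjusted p under 0.05 in each gonad type, and 6 were called with the class term. The summed level was 317, 394, 356, 395 and 357 CPM in intact males and 522, 551, 485, 496 and 448 CPM in GDX males, and 304 to 517, median 404, in intact and 449 to 606, median 547, in OVX females. GDX males were all above intact males, while 2 OVX females lay within the intact range. The gene with the highest level, the glucose carrier Slc2a1, changed least of those named: 71.8 to 91.5 CPM in intact against 89.3 to 102 CPM in GDX males and 76.0 to 106 against 89.2 to 112 CPM in females (log2 fold change 0.20, 95% interval 0.09 to 0.32, adjusted p 0.0212). In bulk tissue, more cells of a type and more RNA per cell cannot be told apart, nor can fewer cells and less RNA per cell. Pecam1 is absent from the table and was not analysed here.

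Podxl, a sialomucin that lines the lumen, was at 10.3, 12.8, 12.5, 14.6 and 10.96 CPM in intact and 18.99, 20.1, 16.9, 19.4 and 19.1 CPM in GDX males, and at 10.1 to 19.03, median 14.1, in intact and 15.9 to 25.6, median 19.9, in OVX females (log2 fold change 0.55, 95% interval 0.35 to 0.75, adjusted p 0.00227). All GDX males and 3 of 6 OVX females were above all intact rats of their sex. The lectin-like receptor Cd93 was at 4.89, 6.74, 4.76, 6.13 and 4.07 CPM in intact and 8.301, 9.53, 8.17, 6.81 and 5.61 CPM in GDX males, and at 2.77 to 5.86, median 4.75, in intact and 5.91 to 11.04, median 9.19, in OVX females (log2 fold change 0.78, 95% interval 0.50 to 1.06, adjusted p 0.00235). Here the females showed no overlap and 1 GDX male lay among the intact males. Slco1a4, an organic anion carrier of the barrier, was higher in 5 of 5 GDX males and 6 of 6 OVX females (log2 fold change 0.39, 95% interval 0.24 to 0.53, adjusted p 0.00285). The class term left changes of 0.52 for Podxl (adjusted p 0.0862), 0.65 for Cd93 (0.113) and 0.39 for Slco1a4 (0.0839).

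In the list of VEGF, angiopoietin and Notch genes, 7 of 23 tested were called higher and 0 lower by edgeR (1 at an unadjusted p under 0.05; 0 by DESeq2), with a median of 0.17 (0.11 with the class term). Its receptors Flt1, Kdr, Tek and Tie1 also belong to the endothelial list. Flt1, the decoy receptor for the growth factor, was higher (0.54, adjusted p 0.0120, 11 of 11), as were the angiopoietin receptor Tek (0.49, adjusted p 0.00524, 11 of 11) and the apelin receptor Aplnr (0.43, adjusted p 0.00187, 11 of 11). Aplnr was at 14.3, 15.1, 14.3, 13.4 and 12.5 CPM in intact and 17.5, 19.6, 21.7, 28.0 and 19.4 CPM in GDX males, and at 15.8 to 20.6, median 18.8, in intact and 20.4 to 24.2, median 22.9, in OVX females. Only 1 OVX female lay within the intact range. The growth factor itself, Vegfa, was not called (-0.11, adjusted p 0.172, lower in 5 of 5 GDX males and 4 of 6 OVX females). The class term left Flt1 at 0.50 (adjusted p 0.181), Tek at 0.55 (0.0862) and Aplnr at 0.48 (0.0594).

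ETS factors such as Erg control many endothelial genes and bind a core of GGAA. The letters CAGGAAG, searched on both strands and chosen after the values were seen, occurred in the promoters of 3 of the 12 endothelial markers with a promoter entry (25.0%), Emcn, Erg and Egfl7, and in 12.3% of the 10707 promoters of genes tested. Promoters are RefSeq sequences of build GRCr8, from 250 bases before to 50 bases after the start. Those of Egfl7 (chr3:29805381-29805680, plus strand), a secreted endothelial factor, and of Erg itself (chr11:48251517-48251816, minus strand) are shown with the match in capitals, which begins 121 bases before the start in Egfl7 and 81 bases before it in Erg, there on the opposite strand. A match is a description of the letters and no evidence of binding.
Egfl7: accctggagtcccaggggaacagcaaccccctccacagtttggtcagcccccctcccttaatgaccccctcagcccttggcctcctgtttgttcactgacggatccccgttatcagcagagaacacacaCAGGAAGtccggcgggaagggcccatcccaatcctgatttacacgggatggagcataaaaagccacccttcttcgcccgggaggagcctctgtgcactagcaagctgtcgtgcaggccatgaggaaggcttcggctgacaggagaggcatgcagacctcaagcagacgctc
Erg: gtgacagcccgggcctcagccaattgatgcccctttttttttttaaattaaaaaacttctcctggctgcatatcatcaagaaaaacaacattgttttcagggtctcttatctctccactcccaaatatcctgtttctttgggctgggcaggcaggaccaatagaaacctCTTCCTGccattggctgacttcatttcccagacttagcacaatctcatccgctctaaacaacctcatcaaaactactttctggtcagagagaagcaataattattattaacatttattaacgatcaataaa

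Pericytes and smooth muscle wrap the endothelium and set vessel width. Of 11 such markers tested 6 were called higher, with a median of 0.34 (0.38 in males and 0.24 in females; 0.33 with the class term, 0.33 among short-fragment libraries and 0.34 with the meningeal term). Smooth muscle myosin, Myh11, was at 29.8, 39.4, 38.3, 45.4 and 38.8 CPM in intact and 48.8, 53.4, 51.6, 46.6 and 48.7 CPM in GDX males, and at 35.5 to 50.3, median 40.2, in intact and 46.7 to 58.8, median 51.4, in OVX females (log2 fold change 0.34, 95% interval 0.21 to 0.48, adjusted p 0.00358). Males did not overlap, and 3 of 6 OVX females were above all intact females. It was also called with the class term (0.38, adjusted p 0.0792). The actin-binding Tagln (0.39, adjusted p 0.00454, 11 of 11), the G protein regulator Rgs5 (0.53, adjusted p 0.0162, 10 of 11), the adhesion protein Vtn (0.41, adjusted p 0.0193, 10 of 11) and the growth factor receptor Pdgfrb (0.23, adjusted p 0.0495, 9 of 11) were higher as well. The wider list of actomyosin genes had 9 of 15 tested called higher, with a median of 0.34 (0.38 in males and 0.19 in females; 0.31 with the class term and 0.15 with the meningeal term). It shares Myh11 and Tagln with the pericyte list. Filamin A, Flna, which crosslinks actin, was at 39.7 to 51.3 CPM in intact and 54.5 to 86.2 CPM in GDX males and at 48.3 to 67.6 and 54.4 to 72.4 CPM in intact and OVX females (log2 fold change 0.38, adjusted p 0.00592, 10 of 11).

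Genes of the meninges and of fibroblasts varied widely between rats of 1 group. Of 14 markers tested 10 were called higher, with a median of 0.78. That median was 1.55 in males and 0.19 in females, so the common term averages unequal values. The summed level was 301, 231, 238, 173 and 152 CPM in intact males and 289, 406, 558, 759 and 592 CPM in GDX males, and 244 to 604, median 461, in intact and 388 to 643, median 491, in OVX females. GDX male 1 lay within the intact range, and only 2 OVX females exceeded all intact females. The gene with the highest level, the fibrillar collagen Col1a1, was at 63.5, 33.3, 28.4, 25.8 and 15.9 CPM in intact and 42.4, 84.7, 136, 160.3 and 160.3 CPM in GDX males, and at 27.0 to 122, median 82.3, in intact and 72.2 to 138, median 116, in OVX females (log2 fold change 1.08, 95% interval 0.48 to 1.67, adjusted p 0.0197). The list's median was 0.87 with the class term.

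How much meningeal tissue stayed on the cords is not stated, so the mean level of this list was added to the fit as a term. Its own median then fell to -0.03, as its construction requires. With this meningeal term 119 genes were called (72 higher, 47 lower; 0.765% of 15562), 109 of them members, and 2022 members kept their sign. Effects were 0.708 times as large for the median gene called higher and 0.736 times for the median gene called lower. The endothelial median rose to 0.54, with 9 of 17 genes called, while the medians of collagens, matrix glycoproteins and insulin-like growth factor genes were at 0.06, 0.01 and -0.02. The collagen, matrix glycoprotein and insulin-like growth factor lists share genes with the meningeal list, among them Col1a1, Col3a1, Lum, Fmod and Igf2. Part of the fall in their medians is therefore built in. When class and meningeal level were both terms, an alternative chosen after the data were seen, 1 gene was called (0.00643% of 15562) and 1236 genes had an unadjusted p under 0.05. Whether removal changes these genes in the meninges or the amount of meninges in the sample was not tested.

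**Figure D4:**
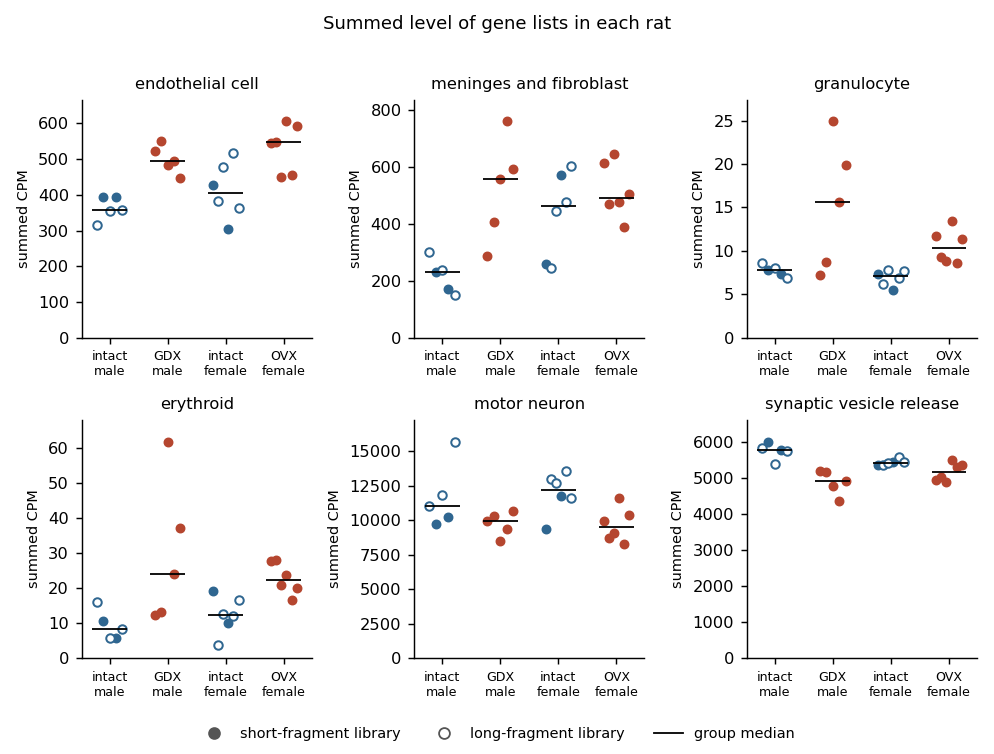
Summed level in CPM (y axis) of 6 gene lists in each of the 22 rats, by group (x axis), blue for intact rats and red for rats without gonads, filled points for short-fragment and open points for long-fragment libraries, and a line at the group median. The endothelial list is higher in all GDX males than in all intact males, the meningeal list spreads widely within groups, and the motor neuron list is higher in 5 of 7 intact long-fragment libraries than in any intact short-fragment library.

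Basement membranes surround vessels and cover the cord under the meninges. Of 19 basement membrane genes tested 15 were called higher and 0 lower by edgeR (1 at an unadjusted p under 0.05; 0 by DESeq2), with a median of 0.35 (0.53 in males and 0.18 in females; 0.37 with the class term, 0.37 among short-fragment libraries and 0.13 with the meningeal term). The laminin chain Lamc3 was at 4.68, 4.30, 4.69, 4.64 and 2.89 CPM in intact and 7.04, 7.62, 8.03, 9.01 and 7.502 CPM in GDX males, and at 5.29 to 7.29, median 6.59, in intact and 6.90 to 8.61, median 8.22, in OVX females (log2 fold change 0.58, 95% interval 0.37 to 0.78, adjusted p 0.00210). Males stood apart and 5 of 6 OVX females exceeded all intact females, and the class term left 0.58 (adjusted p 0.0792). Other chains were higher too: the endothelial laminin Lama4 (0.50, adjusted p 0.00274, 10 of 11), the laminin Lamb2 (0.39, adjusted p 0.00797, 10 of 11) and the collagen IV chain Col4a6 (0.79, adjusted p 0.00951, 11 of 11). Agrn, the agrin of neuromuscular synapses and glial endfeet, had the highest level of the list and was not called (-0.13, adjusted p 0.132, lower in 5 of 5 GDX males and 4 of 6 OVX females). Of 13 fibrillar and meningeal collagens 7 were called higher, with a median of 0.53 (1.00 in males and 0.09 in females; 0.53 with the class term). Col6a2 (0.57, adjusted p 0.00730, 10 of 11), Col6a1 (0.67, adjusted p 0.0146, 10 of 11) and Col5a2 (0.23, adjusted p 0.0147, 10 of 11) had smaller p than Col1a1. Col16a1, with the highest level, was not called (-0.02, adjusted p 0.905, 5 of 11).

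Among matrix glycoproteins and proteoglycans 9 of 19 genes tested were called higher, with a median of 0.39 (0.68 in males and 0.11 in females; 0.35 with the class term). Fibronectin, Fn1, which links cells to collagen, was at 55.9, 44.5, 47.7, 40.2 and 39.3 CPM in intact and 71.0, 85.1, 108, 173 and 127 CPM in GDX males, and at 56.6 to 125, median 109, in intact and 79.3 to 178, median 138, in OVX females (log2 fold change 0.84, 95% interval 0.47 to 1.20, adjusted p 0.00582). Only the males stood apart. Its change was 0.93 with the class term (adjusted p 0.102) and with the meningeal term 0.23 (adjusted p 0.178). Tenascin C, Tnc (0.28, adjusted p 0.0103, 9 of 11), thrombospondin 2, Thbs2 (0.38, adjusted p 0.0124, 9 of 11), and fibulin 1, Fbln1 (0.50, adjusted p 0.0277, 9 of 11), were higher, and the astrocytic Sparcl1, with the highest level, was not called (0.02, adjusted p 0.606, 7 of 11). Of 16 matrix proteases and inhibitors 5 were called higher and 1 lower, with a median of 0.14 (0.12 in males and 0.03 in females; 0.15 with the class term, 0.15 among short-fragment libraries and -0.01 with the meningeal term). The versican- and aggrecan-cleaving Adamts9 (0.23, adjusted p 0.00159, 11 of 11) and the membrane collagenase Mmp14 (0.28, adjusted p 0.0162, 10 of 11) were higher and the membrane-anchored Mmp17 (-0.29, adjusted p 0.0381, 11 of 11) lower, and the inhibitor Timp2, with the highest level, was not called (-0.01, adjusted p 0.892, 5 of 11). Adamts9 was also called with the class term (0.25, adjusted p 0.0594).

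TGF-beta is stored in the matrix by binding proteins and signals through paired receptor kinases. Of 21 TGF-beta and BMP genes tested 10 were called higher, with a median of 0.25 (0.42 in males and 0.12 in females; 0.30 with the class term, 0.30 among short-fragment libraries and 0.10 with the meningeal term). The ligand Tgfb1 was at 9.08, 9.41, 8.92, 8.105 and 10.1 CPM in intact and 10.2, 12.3, 11.003, 12.6 and 10.6 CPM in GDX males, and at 8.83 to 10.2, median 9.25, in intact and 9.54 to 11.9, median 11.03, in OVX females (log2 fold change 0.26, 95% interval 0.14 to 0.37, adjusted p 0.00730). Males stood apart and 4 of 6 OVX females were above all intact females. The receptor Tgfbr2 (0.34, adjusted p 0.00650, 11 of 11), the endothelial receptor Acvrl1 (0.42, adjusted p 0.0175, 10 of 11) and the matrix store Ltbp1 (0.66, adjusted p 0.0147, 11 of 11) were higher, and Ltbp3, with the highest level, was not called (0.00, adjusted p 0.985, 5 of 11). Under the class term Tgfb1 was at 0.28 (adjusted p 0.102) and Tgfbr2 at 0.35 (0.117).

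Of 24 Wnt genes tested 6 were called higher and 0 lower by edgeR (1 at an unadjusted p under 0.05; 0 by DESeq2), with a median of 0.19 (0.32 in males and 0.06 in females; 0.21 with the class term, 0.21 among short-fragment libraries and 0.03 with the meningeal term). By role these were ligands, Wnt4 and Wnt5b (0.72, adjusted p 0.0129, 10 of 11), the coreceptor Lrp5 (0.16, adjusted p 0.0301, 11 of 11), the secreted modulator Dkk3, the nuclear partner Lef1 (0.44, adjusted p 0.0181, 10 of 11) and the feedback target Axin2 (0.22, adjusted p 0.00852, 11 of 11). The coreceptor Lrp6, with the highest level, was not called (0.06, adjusted p 0.303, 7 of 11). Axin2 changed alike in both gonad types, 0.22 in males and 0.22 in females, and by 0.20 with the class term (adjusted p 0.168). Of 10 insulin-like growth factor genes 3 were called higher, with a median of 0.41 (0.78 in males and 0.12 in females). The ligands Igf2 (0.93, adjusted p 0.0197, 11 of 11) and Igf1 (0.52, adjusted p 0.0918, 10 of 11) and the vascular binding protein Igfbp7 (0.39, adjusted p 0.00216, 11 of 11) were higher. Igf2 was 1.60 in males and 0.42 in females, and with the meningeal term 0.19 (adjusted p 0.485), where Igfbp7 was still called (0.18, adjusted p 0.0827) and Igf1 was at -0.02. Igf1 was called in 9 of the 22 fits that left out 1 rat. Igfbp5, with the highest level, was not called (0.43, adjusted p 0.131, 9 of 11).

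Genes of blood cells had the largest list medians at low levels. Perfusion with saline should wash blood from the vessels. All 4 erythroid genes tested were called higher, with a median of 1.23 (1.65 in males and 0.87 in females; 1.12 with the class term and 0.65 with the meningeal term). Neither term left a called gene by edgeR, and 3 of 4 genes had an unadjusted p under 0.05 with the same sign within the short class (DESeq2 was not run with these terms). Alpha globin Hba-a2, with the highest level, was at 11.3, 7.70, 3.85, 4.08 and 5.84 CPM in intact and 9.03, 10.05, 43.8, 17.04 and 28.0 CPM in GDX males, and at 3.05 to 13.8, median 8.64, in intact and 10.8 to 19.9, median 15.6, in OVX females (log2 fold change 1.23, 95% interval 0.67 to 1.79, adjusted p 0.00736). GDX male 4 was highest, and 2 of 5 GDX males and 2 of 6 OVX females lay within the intact range. Hba-a2 has close paralogs, so its reads may be shared. Beta globin Hbb (1.22, adjusted p 0.00953, 11 of 11), the band 3 anion exchanger Slc4a1 (1.33, adjusted p 0.0365, 10 of 11) and the heme enzyme Alas2 (1.12, adjusted p 0.0433, 10 of 11) were higher, and Ahsp, with at most 11 counts in a library, was not tested. The summed level was 15.95, 10.6, 5.82, 5.69 and 8.27 CPM in intact and 12.2, 13.1, 61.8, 24.1 and 37.1 CPM in GDX males, and 3.60 to 19.1, median 12.3, in intact and 16.4 to 28.0, median 22.3, in OVX females.

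All 6 granulocyte genes tested were called higher, with a median of 2.05 (2.60 in males and 1.59 in females; 1.89 with the class term and 1.24 with the meningeal term). Here too, neither term left a called gene by edgeR, and 5 of 6 genes had an unadjusted p under 0.05 with the same sign within the short class. The calcium-binding S100a9, which neutrophils hold in bulk, was at 0.780, 0.444, 0.151, 0.557 and 0.460 CPM in intact and 0.598, 0.520, 5.47, 1.99 and 4.89 CPM in GDX males, and at 0.187 to 0.984, median 0.316, in intact and 1.09 to 1.73, median 1.32, in OVX females (log2 fold change 2.05, 95% interval 1.25 to 2.84, adjusted p 0.00323). Females did not overlap, and 2 GDX males lay within the intact range. Its partner S100a8 (2.33, adjusted p 0.0147, 9 of 11), the neutrophil protease Mmp8 (2.05, adjusted p 0.0169, 9 of 11), the defensins Np4 (2.27, adjusted p 0.00985, 10 of 11) and RatNP-3b (1.58, adjusted p 0.0214, 10 of 11), and the receptor Csf3r (0.31, adjusted p 0.0483, 9 of 11), which had the highest level of the list, were higher. RatNP-3b is outside the list and was named for its large change. Defensin genes are close paralogs, and reads of one may be counted for another. The granule genes Mpo, Elane, Camp and Retnlg had too few counts to be tested, at most 37 in a library. The summed level was 8.65, 7.85, 8.09, 7.30 and 6.89 CPM in intact and 7.24, 8.78, 24.9, 15.7 and 19.9 CPM in GDX males, and 5.47 to 7.85, median 7.13, in intact and 8.66 to 13.5, median 10.3, in OVX females. With the mean erythroid level as a term, added after the data were seen, the granulocyte median was 0.60. The part of blood content in these values was not tested.

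Interferons switch on antiviral genes through short promoter elements. Of 33 interferon-stimulated genes tested 5 were called higher, with 32 of 33 above 0 and a median of 0.34. The median was larger in females, 0.09 in males and 0.39 in females, and fell to 0.13 with the class term and 0.14 within the short class. The class term left 0 called genes by edgeR, and 0 of 33 had an unadjusted p under 0.05 with the same sign within the short class (DESeq2 was not run with this term). The summed level was 261, 336, 319, 407 and 298 CPM in intact and 328, 285, 352, 387 and 319.7 CPM in GDX males, and 245 to 328, median 289.7, in intact and 327 to 398, median 358, in OVX females. Males overlapped throughout, and 5 of 6 OVX females were above all intact females. The guanylate-binding GTPase Gbp2 was at 6.03, 5.70, 7.79, 9.16 and 4.99 CPM in intact and 8.63, 6.70, 8.51, 9.37 and 9.46 CPM in GDX males, and at 5.88 to 8.67, median 6.86, in intact and 7.65 to 9.92, median 9.10, in OVX females (log2 fold change 0.33, 95% interval 0.13 to 0.53, adjusted p 0.0311). Xaf1, which promotes cell death, showed no overlap in females, 1.27 to 2.93 against 3.35 to 4.10 CPM, and overlapped in males, 1.99 to 3.11 against 2.27 to 3.58 CPM (log2 fold change 0.44, 95% interval 0.17 to 0.70, adjusted p 0.0327). Gbp5 (0.35, adjusted p 0.0533, 9 of 11) and the membrane tether Bst2 (0.42, adjusted p 0.0536, 8 of 11) were called. Bst2 changed by -0.03 in males and 0.80 in females, and the interaction did not reach an adjusted p under 0.1.

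The letters GAAA, 2 bases, GAAA, searched on both strands, occurred in the promoters of 18 of the 24 interferon-stimulated genes with an entry (75.0%). They occurred in 2.77% of 10707 promoters of genes tested, in 5.52% of 634 promoters of genes called higher, in 3.03% of 824 of genes called lower and in 3.77% of all 27457 promoters. The promoters of Gbp2 (chr2:234005477-234005776, plus strand) and Xaf1 (chr10:57415685-57415984, plus strand), the called interferon genes with the smallest p, are shown from RefSeq, build GRCr8, with the match in capitals. The match begins 31 bases before the start in Gbp2, on the opposite strand, and 11 bases before it in Xaf1.
Gbp2: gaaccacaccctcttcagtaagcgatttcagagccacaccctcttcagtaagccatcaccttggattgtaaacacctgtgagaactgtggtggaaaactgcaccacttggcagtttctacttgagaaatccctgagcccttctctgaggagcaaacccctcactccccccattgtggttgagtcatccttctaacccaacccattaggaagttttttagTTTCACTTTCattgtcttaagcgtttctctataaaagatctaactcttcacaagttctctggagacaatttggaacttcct
Xaf1: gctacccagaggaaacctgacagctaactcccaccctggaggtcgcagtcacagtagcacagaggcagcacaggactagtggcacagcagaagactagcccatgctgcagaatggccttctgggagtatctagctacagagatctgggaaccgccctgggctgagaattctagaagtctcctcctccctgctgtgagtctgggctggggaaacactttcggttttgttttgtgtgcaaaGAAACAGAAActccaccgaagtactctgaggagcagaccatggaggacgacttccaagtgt

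Of 22 class I and II genes tested 3 were called higher, with a median of 0.25 (0.25 with the class term). Beta-2 microglobulin, B2m, the light chain of class I molecules and the gene with the highest level, was at 113, 103, 128, 127 and 119.6 CPM in intact and 129, 137, 145, 156 and 139 CPM in GDX males, and at 112 to 139, median 124, in intact and 133 to 161, median 143, in OVX females (log2 fold change 0.23, 95% interval 0.14 to 0.33, adjusted p 0.00436). Males stood apart, and 3 of 6 OVX females were above all intact females. The heavy chains RT1-S3 (0.42, adjusted p 0.0241, 9 of 11) and RT1-T24-4 (0.40, adjusted p 0.0686, 10 of 11) have close paralogs, so their reads may be shared. Of 17 complement genes 5 were called higher, with a median of 0.19 (0.32 in males and 0.13 in females; 0.09 with the class term, 0.09 among short-fragment libraries and 0.02 with the meningeal term). The central component C3 (0.26, adjusted p 0.0128, 10 of 11) and the inhibitor Serping1 (0.55, adjusted p 0.0403, 9 of 11) were higher, and Serping1 was at -0.01 with the meningeal term. Among 8 border macrophage genes 3 were called, the scavenger receptor Stab1 (0.58, adjusted p 0.00568, 10 of 11), F13a1 (0.56, adjusted p 0.0361, 10 of 11) and Clec10a (0.59, adjusted p 0.0758, 9 of 11), with a median of 0.48 (0.89 in males and 0.24 in females; 0.16 with the meningeal term), and the mannose receptor Mrc1, with the highest level, was not (0.35, adjusted p 0.129, 8 of 11). Of 9 microglia genes only Sall1 (0.16, adjusted p 0.0224, 10 of 11) was called by edgeR, while 4 were higher at an unadjusted p under 0.05 and 2 by DESeq2. All 9 were above 0, with a median of 0.12 (0.14 in males, 0.13 in females, 0.14 with the class term and 0.08 with the meningeal term). Of T and NK cell markers only Cd4 (0.29, adjusted p 0.0383, 9 of 11), which microglia and macrophages of the rat also carry, had counts enough to be tested, and the other 10 had at most 16 in a library.

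Genes that were lower had smaller changes. L1cam, an adhesion molecule of growing and bundled axons, was at 125, 121, 111, 124 and 117 CPM in intact and 101, 105, 89.8, 79.6 and 89.3 CPM in GDX males, and at 105 to 114, median 112, in intact and 82.5 to 104, median 97.4, in OVX females (log2 fold change -0.28, 95% interval -0.37 to -0.19, adjusted p 0.00117). No rat without gonads overlapped with an intact rat of its sex. Plcb1, the phospholipase C that cleaves membrane lipid below receptors coupled to Gq, was at 118, 109.6, 113, 113 and 125 CPM in intact and 96.2, 98.9, 95.8, 93.7 and 103 CPM in GDX males, and at 102 to 116, median 113, in intact and 94.5 to 105, median 98.4, in OVX females (log2 fold change -0.20, 95% interval -0.26 to -0.14, adjusted p 0.000667). Only 1 OVX female and 1 intact female met. Both were also called with the class term, L1cam at -0.28 (adjusted p 0.0594) and Plcb1 at -0.15 (0.0823).

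Tomm40, the import pore of the outer mitochondrial membrane, was at 38.6, 38.4, 37.2, 39.9 and 36.6 CPM in intact and 32.8, 31.0, 32.1, 30.4 and 31.2 CPM in GDX males, and at 36.2 to 43.4, median 38.6, in intact and 34.8 to 36.5, median 35.7, in OVX females (log2 fold change -0.20, 95% interval -0.27 to -0.13, adjusted p 0.00187). Its change was larger with the class term, -0.26 (adjusted p 0.0123). Males did not overlap, and 2 of 6 OVX females lay within the intact range. Adhesion and surface genes were the neuronal adhesion molecule Cadm3 (-0.27, adjusted p 0.00141, 11 of 11), the LGI1 receptor Adam23 (-0.25, adjusted p 0.00159, 11 of 11) and the AMPA receptor partner Cacng2 (-0.24, adjusted p 0.00257, 11 of 11). Lysosomal and lipid genes were the exonuclease Pld3 (-0.20, adjusted p 0.00119, 11 of 11), the oxysterol-binding Osbpl6 (-0.19, adjusted p 0.00224, 11 of 11) and the endosomal Zfyve28 (-0.31, adjusted p 0.00168, 11 of 11). Ndrg4 (-0.20, adjusted p 0.00210, 11 of 11), the ubiquitin hydrolase Uchl1 (-0.17, adjusted p 0.00213, 10 of 11), the dispatched homolog Disp2 (-0.32, adjusted p 0.00232, 11 of 11) and the adaptor Shd (-0.21, adjusted p 0.00257, 10 of 11) were lower as well. With the class term the smallest change among these 10 was -0.13 for Uchl1 and the largest -0.28 for Disp2. Cadm3, Adam23, Zfyve28, Uchl1 and Cacng2 were not called there, with adjusted p from 0.102 to 0.135.

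Motor neurons send large axons, rich in neurofilaments, to muscle and release acetylcholine there. Of 13 motor neuron genes tested 7 were called lower, against 7.18% of all genes tested. The median was -0.24 (-0.26 in males and -0.32 in females). Slc18a3, which loads acetylcholine into vesicles, was at 50.4, 46.8, 56.2, 46.8 and 78.7 CPM in intact and 45.1, 44.1, 34.1, 37.7 and 45.9 CPM in GDX males, and at 43.7 to 68.6, median 63.1, in intact and 31.2 to 48.2, median 43.4, in OVX females (log2 fold change -0.50, 95% interval -0.69 to -0.30, adjusted p 0.00383). Males did not overlap, and 1 intact female lay within the OVX range. Chat (-0.34, adjusted p 0.0308, 11 of 11) and the esterase Ache (-0.24, adjusted p 0.00516, 11 of 11) were lower too. Fragment class moved with these genes among intact rats: the list's summed level was 9361 to 11731 CPM in the 4 intact short-fragment libraries, 11058 to 15714 CPM in the 7 intact long-fragment libraries and 8247 to 11614 CPM in rats without gonads. This sum is mostly Nefm and Nefh, at 5625 and 4659 CPM in intact male 1. Slc18a3 was at 43.7 to 58.7 CPM in intact short-fragment and 50.4 to 78.7 CPM in intact long-fragment libraries. The class term moved the median to -0.08, and 2 of 13 genes had an unadjusted p under 0.05 with the same sign within the short class. Under the class term Slc18a3 was at -0.24 (adjusted p 0.281), Chat at -0.09 (0.762) and Ache at -0.23 (0.117).

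Neurofilament and axon genes showed the same dependence. Of 20 tested 13 were called lower, with a median of -0.13 (-0.08 with the class term). The heavy neurofilament Nefh was at 4659, 4116, 5098, 4249 and 6406 CPM in intact and 4121, 4237, 3538, 3838 and 4266 CPM in GDX males, and at 3922 to 5492, median 5157, in intact and 3629 to 4776, median 4004, in OVX females (log2 fold change -0.29, 95% interval -0.43 to -0.15, adjusted p 0.0101). Groups overlapped in both sexes, and the class term left -0.10 (adjusted p 0.577). Nefm (-0.30, adjusted p 0.0215, 11 of 11), Nefl (-0.25, adjusted p 0.0105, 11 of 11), the microtubule protein Map1b (-0.20, adjusted p 0.00814, 10 of 11) and the ankyrin Ank2 (-0.13, adjusted p 0.00776, 10 of 11) were also lower. Cholinergic genes, which share Chat, Slc18a3 and Ache with the motor neuron list, had 4 of 13 tested called lower and 1, the plasma esterase Bche, higher, with a median of -0.16 (-0.19 with the class term). Slc5a7, with the highest level of the list, was not called. In the 22 fits that left out 1 rat its log2 fold change was -0.14 to -0.06, with 0 calls.

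Of 12 general neuron markers 5 were called lower, with a median of -0.13 (-0.23 in males and -0.04 in females; -0.20 with the class term and -0.07 with the meningeal term). Of 22 genes of synaptic vesicle release 13 were called lower, with a median of -0.14 (-0.24 in males and -0.05 in females; -0.18 with the class term, -0.19 among short-fragment libraries and -0.06 with the meningeal term). Their summed level was 5837, 6024, 5406, 5786 and 5759 CPM in intact and 5209, 5174, 4796, 4374 and 4935 CPM in GDX males, and 5372 to 5594, median 5439, in intact and 4913 to 5510.3, median 5178, in OVX females. All GDX males were below all intact males, and 4 of 6 OVX females below all intact females. Synaptophysin, Syp, of the vesicle membrane was at 209, 231, 191, 216 and 205 CPM in intact and 189.9, 192, 168, 156 and 174 CPM in GDX males, and at 192 to 201, median 198, in intact and 174 to 197, median 182, in OVX females (log2 fold change -0.18, 95% interval -0.26 to -0.10, adjusted p 0.00642). Each sex had 1 rat without gonads within the intact range. Syp was called with the class term (-0.23, adjusted p 0.0594), as was Rab3a, the vesicle GTPase (-0.15, adjusted p 0.0871). The fusion clamp Cplx1 (-0.17, adjusted p 0.00854, 10 of 11) and the fusion protein Snap25 (-0.12, adjusted p 0.0340, 10 of 11) were lower in the common term.

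Potassium channels repolarize neurons and set firing. Of 26 tested 12 were called lower, with a median of -0.16 (-0.22 in males and -0.11 in females; -0.16 with the class term and -0.10 with the meningeal term). The calcium-activated channel Kcnma1 (-0.22, adjusted p 0.00404, 11 of 11), the acid-sensitive leak channel Kcnk9 (-0.34, adjusted p 0.00539, 11 of 11) and the axonal Kcna2 (-0.14, adjusted p 0.0136, 9 of 11) were lower. Of 24 sodium and calcium channel genes 12 were called lower, with a median of -0.12 (-0.21 in males and -0.05 in females; -0.18 with the class term and -0.06 with the meningeal term). Unc80, part of the sodium leak complex, was at 280.4 to 318 CPM in intact and 217 to 257 CPM in GDX males, and at 262 to 287 and 238 to 277 CPM in intact and OVX females (log2 fold change -0.21, 95% interval -0.30 to -0.12, adjusted p 0.00462). The presynaptic N-type channel Cacna1b (-0.25, adjusted p 0.00894, 11 of 11), the nodal sodium channel Scn8a (-0.25, adjusted p 0.00524, 11 of 11) and the accessory Cacna2d3 (-0.19, adjusted p 0.00489, 11 of 11) were lower as well. With the class term Unc80 (-0.22, adjusted p 0.0876) and Cacna1b (-0.31, 0.0792) were called.

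Glutamate drives the motor neurons, and glycine and GABA restrain them. Of 22 glutamate receptor genes tested 10 were called lower, with a median of -0.12 (-0.19 in males and -0.04 in females; -0.18 with the class term and -0.04 with the meningeal term). Grin3b, an NMDA receptor subunit typical of motor neurons, was at 13.3, 11.3, 13.001, 12.4 and 17.6 CPM in intact and 12.2, 9.99, 8.1004, 9.44 and 11.9 CPM in GDX males, and at 9.12 to 16.6, median 13.3, in intact and 7.86 to 11.2, median 8.76, in OVX females (log2 fold change -0.47, 95% interval -0.67 to -0.27, adjusted p 0.00524). Its groups overlapped by 1 intact rat in each sex, and the class term left -0.30 (adjusted p 0.229). The obligatory subunit Grin1 was -0.38 in males and -0.07 in females (-0.21, adjusted p 0.0307, 9 of 11), and Gria4 (-0.12, adjusted p 0.0156, 10 of 11) and Grm3 (-0.10, adjusted p 0.0375, 11 of 11) were lower. Of 22 GABA and glycine genes 4 were called lower, with a median of -0.07 (-0.13 in males and 0.00 in females): the glycine receptor subunits Glra1 (-0.25, adjusted p 0.0104, 9 of 11) and Glrb (-0.12, adjusted p 0.0253, 10 of 11), the glycine carrier Slc6a5 (-0.18, adjusted p 0.0324, 8 of 11) and Gabbr1 (-0.07, adjusted p 0.0989, 9 of 11). Of 26 receptors and kinases studied in plasticity of breathing, 4 were called higher and 5 lower, with a median of -0.10 (-0.15 in males and -0.03 in females; -0.04 with the meningeal term). The adrenergic receptor Adra1a (-0.27, adjusted p 0.0111, 10 of 11) and the atypical kinase Prkcz (-0.12, adjusted p 0.0172, 11 of 11) were lower and the oxidase subunit Cyba (0.33, adjusted p 0.0267, 11 of 11) higher, and the neurotrophin receptor Ntrk2, with the highest level, was not called (-0.02, adjusted p 0.757, 6 of 11).

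The 15 genes of sex steroid reception and synthesis that were tested had a median of 0.08. The estrogen receptor Esr1 was at 1.28 to 2.04 CPM in intact rats and 1.17 to 2.50 CPM in rats without gonads (log2 fold change 0.21, 95% interval -0.08 to 0.50, adjusted p 0.400, higher in 9 of 11). Esr2 (0.05, 95% interval -0.20 to 0.30, adjusted p 0.842, 5 of 11) and the progesterone receptor Pgr (-0.12, -0.31 to 0.08, 0.502, 7 of 11) were not called, nor was Esr1. Hsd17b4, a peroxisomal enzyme that inactivates estradiol, was higher by 0.08 (adjusted p 0.0604, all 11). The steroid-reducing Srd5a1 was not called (0.10, adjusted p 0.192, 8 of 11), and Gper1, Star, Hsd17b1, Hsd17b10, Hsd17b12, Srd5a3, Akr1c14, Tspo and Sts ranged from -0.28 to 0.30 with adjusted p from 0.245 to 0.795. Aromatase, Cyp19a1, and Cyp17a1, Cyp11a1 and Srd5a2 had at most 5 counts in a library and were not tested. Of 8 other steroid, thyroid and pituitary hormone receptors tested 0 were called by edgeR (0 at an unadjusted p under 0.05; 0 by DESeq2), and Lhcgr and Fshr had too few counts to be tested. Of 14 classical steroid-induced genes 1 was called, the transglutaminase Tgm2 (0.53, adjusted p 0.00322, 10 of 11), and 0 lower by edgeR (1 at an unadjusted p under 0.05; 0 by DESeq2), with a median of -0.10 (0.06 in males and -0.25 in females; 0.08 with the class term, 0.10 among short-fragment libraries and -0.15 with the meningeal term), a sign that depends on the gonad type and on the fit.

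Estrogen receptors bind a palindrome. The estrogen element, GGTCA, 3 bases, TGACC, occurred in 1 of 10707 promoters of genes tested (0.00934%) and in 7 of all 27457 (0.0255%), read on both strands. The match among genes tested was in the promoter of LOC102549061, chosen after its values were seen, which was higher in 4 of 5 GDX males and 6 of 6 OVX females (log2 fold change 0.40, 95% interval 0.15 to 0.65, adjusted p 0.0409). Its level was 2.84, 2.81, 2.65, 3.16 and 1.71 CPM in intact and 3.19, 3.81, 4.25, 3.05 and 2.54 CPM in GDX males, and 1.75 to 2.68, median 2.21, in intact and 2.47 to 3.90, median 2.88, in OVX females. Groups overlapped in both sexes. The sequence (chr17:41807663-41807962, plus strand, RefSeq, build GRCr8) is shown for this match, in capitals, which begins 171 bases before the start. The androgen or glucocorticoid element, GAACA, 3 bases, TGTTC, occurred in 2 of 10707 promoters of genes tested (0.0187%) and in 14 of all 27457 (0.051%). It occurred in 0 of 634 promoters of genes called higher and in 0 of 824 of genes called lower. Elements farther from the start or with other letters are not covered by this window.
LOC102549061: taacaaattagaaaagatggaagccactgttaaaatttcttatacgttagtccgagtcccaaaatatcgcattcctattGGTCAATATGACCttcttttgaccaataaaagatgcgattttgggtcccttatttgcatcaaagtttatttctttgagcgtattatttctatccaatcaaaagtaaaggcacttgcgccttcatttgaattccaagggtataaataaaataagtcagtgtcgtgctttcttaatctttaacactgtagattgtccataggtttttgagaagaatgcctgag

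Of 12 astrocyte genes 3 were called higher and 0 lower by edgeR (3 at an unadjusted p under 0.05; 1 by DESeq2), with a median of 0.06. Gfap, the filament that astrocytes raise when reactive, was at 2859.5, 3135, 3206, 3246 and 2861 CPM in intact and 3969, 3989, 3620.5, 4495 and 3862 CPM in GDX males, and at 2727 to 3990.2, median 3252, in intact and 3263 to 4001, median 3669, in OVX females (log2 fold change 0.26, 95% interval 0.15 to 0.38, adjusted p 0.00524). Males stood apart and females overlapped, and the class term left 0.23 (adjusted p 0.152). The endfoot water channel Aqp4 (0.14, adjusted p 0.00798, 11 of 11) was also called with the class term (0.17, adjusted p 0.0823). Of 12 oligodendrocyte genes 2 were called higher, Cnp (0.09, adjusted p 0.0313, 10 of 11) and Ermn (0.13, adjusted p 0.0326, 10 of 11), and of 9 precursor genes Pdgfra (0.15, adjusted p 0.0548, 9 of 11) was higher and Olig1 (-0.17, adjusted p 0.0161, 9 of 11) lower. Of 19 cholesterol genes 5 were called higher, with a median of 0.04.

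Several lists had no gene called by edgeR. These were 35 ribosomal protein genes (3 at an unadjusted p under 0.05; 1 by DESeq2), 16 heat shock genes (4 at an unadjusted p under 0.05; 1 by DESeq2), 8 dorsal horn markers (1 at an unadjusted p under 0.05; 0 by DESeq2), 8 Schwann cell and root markers (0 at an unadjusted p under 0.05; 0 by DESeq2), 9 ependymal markers (0 at an unadjusted p under 0.05; 0 by DESeq2) and 12 genes of nuclear speckles and RNA processing (0 at an unadjusted p under 0.05; 0 by DESeq2). Their medians lay between -0.02 and 0.12. Among 24 nuclear genes of oxidative phosphorylation 3 were called lower and 0 higher by edgeR (1 at an unadjusted p under 0.05; 0 by DESeq2), Uqcrc1 (-0.10, adjusted p 0.0281, 9 of 11), Atp5f1b (-0.08, adjusted p 0.0376, 11 of 11) and Atp5f1a (-0.06, adjusted p 0.0829, 11 of 11). Of 15 immediate early genes 3 were called higher, Egr1 (0.35, adjusted p 0.0203, 10 of 11), Ier5 (0.31, adjusted p 0.0177, 11 of 11) and Btg2 (0.44, adjusted p 0.0584, 10 of 11), and of 19 clock genes 1 was called lower, Cry2 (-0.10, adjusted p 0.0430, 10 of 11), and 0 higher by edgeR (2 at an unadjusted p under 0.05; 0 by DESeq2). Of 12 genes of Flt3, Kit and related receptors 4 were called higher and 1 lower. Flt3, a receptor of blood progenitors, changed by -0.46 in males and -0.11 in females (-0.27, adjusted p 0.0145, 10 of 11), with the class term -0.18 (adjusted p 0.336).

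With the class term edgeR made 6 calls for the endothelial cell list, 3 for the VEGF, angiopoietin and Notch list, 3 for the synaptic vesicle release list, 2 for the basement membrane list, 2 for the actomyosin list, 2 for the sodium and calcium channels list and 1 in each of the lists astrocyte, border macrophage, pericyte and smooth muscle, classical steroid-induced genes, matrix proteases and inhibitors, TGF-beta and BMP and IGF and binding proteins. The other lists had none (DESeq2 was not run with this term).

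**Figure D5:**
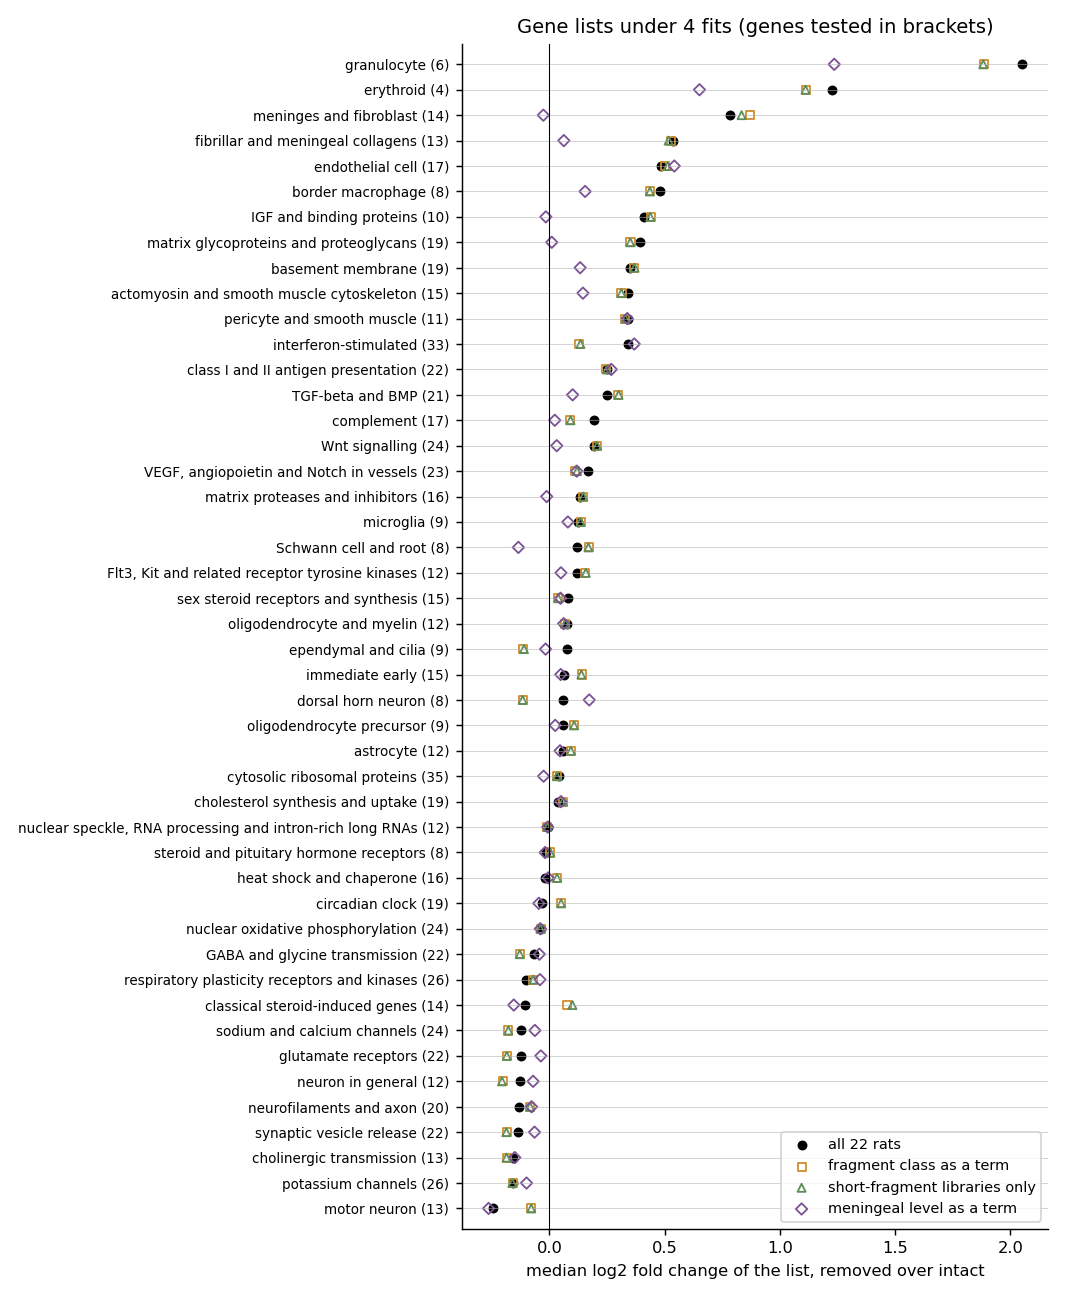
Median log2 fold change of rats without gonads over intact rats (x axis) for the 47 gene lists except T and NK lymphocyte (y axis, genes tested in brackets) in the fit of all 22 rats, with the fragment class as a term, within the short-fragment libraries and with the meningeal level as a term, 1 symbol per fit. The T and NK lymphocyte list, with 1 gene tested, is not drawn. Endothelial genes keep a median of 0.48 to 0.54 in the 4 fits, meningeal and collagen medians fall to -0.03 and 0.06 with the meningeal term, and the motor neuron median moves to -0.08 with the class term.

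The largest fold changes belonged to genes at low levels that were high in a few rats. Nup210l, a nuclear pore protein made mainly in testis, was at 0.321 to 48.8, median 20.4, in OVX females, where females 1, 2, 3 and 6 had 18.9 to 48.8 CPM, and at no more than 1.45 CPM in the other 18 rats (log2 fold change 5.01, 95% interval 3.33 to 6.69, adjusted p 0.00147). The muscle genes Mb and Myh7 were highest in OVX females 1 and 4. Myoglobin, Mb, reached 10.99 CPM in OVX females against at most 1.11 CPM in the other groups (log2 fold change 2.75, 95% interval 0.86 to 4.63, adjusted p 0.0591, 1 of 5 GDX males and 4 of 6 OVX females). Its counts in OVX females 1 to 6 were 98, 4, 26, 197, 0 and 1. Slow myosin, Myh7, reached 14.3 CPM (log2 fold change 2.62, 95% interval 1.24 to 4.00, adjusted p 0.0154, 5 of 5 GDX males and 3 of 6 OVX females). Its counts in the same rats were 151, 3, 17, 256, 6 and 5. Among genes with lower levels, Echs1 was at 16.5 CPM in intact male 1 and 13.6 CPM in intact female 6 and at most 1.05 CPM in the other 20 rats (log2 fold change -2.49, 95% interval -4.08 to -0.91, adjusted p 0.0413). Both rats have long-fragment libraries, and with the class term the change was 0.01.

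AABR07064724.1 was at 0.460 to 6.81 CPM in intact and 0.203 to 1.70 CPM in GDX males, and at 0.374 to 10.7, median 3.15, in intact and 0.234 to 0.962, median 0.677, in OVX females (log2 fold change -2.20, 95% interval -3.42 to -0.97, adjusted p 0.0212), with -3.23 under the class term (adjusted p 0.0123). LOC100360117 was at 82.4 CPM in intact female 1 and 51.4 CPM in intact female 4 and at most 6.07 CPM elsewhere (log2 fold change -1.49, adjusted p 0.0925). LOC100911422, at 22.4 CPM in intact female 6 (-1.47, adjusted p 0.0668, 11 of 11), and LOC100911417 (-1.34, adjusted p 0.0498, 11 of 11) were of the same kind. Changes of this kind rest on few rats and do not describe the groups.

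For 4 members the change differed between gonad types at an adjusted p under 0.1 of the interaction, and in each it was larger in males. They were chosen after their values were seen. The proline carrier Slc6a20 was at 8.44, 10.8, 6.42, 9.47 and 5.38 CPM in intact and 18.1, 18.1, 25.1, 56.1 and 32.2 CPM in GDX males, and at 12.6 to 34.8, median 24.3, in intact and 14.6 to 32.6, median 22.9, in OVX females, where the groups overlapped (interaction adjusted p 0.0973). Log2 fold changes were 1.88 in males and -0.02 in females for Slc6a20, 1.06 in males and 0.17 in females for the scaffold Ahnak (interaction adjusted p 0.0973), 1.02 in males and 0.21 in females for the matrix protein Olfml2a (0.0864) and 0.81 in males and 0.05 in females for the laminin chain Lama1 (0.0973). With the meningeal term the common change was -0.08 for Slc6a20, 0.13 for Ahnak, 0.25 for Olfml2a and 0.13 for Lama1. These calls are not stable: leaving out 1 rat gave 0 (without GDX male 4 among others) to 127 (without GDX male 1) interaction calls among members, and the class term and the short-fragment libraries gave 1 each.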

How the data were processed

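Gene counts were used as deposited by the authors, whose methods name Hisat2 for alignment to Rnor_6.0 and featureCounts for counting, while the submitters' processing notes name TopHat2 2.0.13. Settings for strand and for reads with several matches are not stated. Genes were filtered with filterByExpr, scaled by TMM and fitted with the quasi-likelihood F test of edgeR 4.0.16 (R 4.3.3; limma 3.58.1; DESeq2 1.42.0 as an alternative), with gonad type and removal as terms. P-values were adjusted by Benjamini-Hochberg over all genes tested, and an adjusted p under 0.1 was a call. CPM were computed with TMM-scaled totals. Named genes were, among called genes, the 12 in each direction with the smallest p of those with the same sign and an unadjusted p under 0.05 in each gonad type, the 5 in each direction with the largest change at a mean of at least 1 CPM, the 8 in each direction with the smallest p of those also called with the class term and under 0.05 within the short class, and up to 4 called genes of each list, besides its most abundant gene, genes of the sex steroid list and 3 sex-linked genes. The members, the gene lists and the named genes were chosen with earlier results of these data known. Tests were checked on simulated data. Promoters came from the RefSeq build GRCr8, which differs from the build of the counts, and were matched by symbol for 10707 of 15562 genes tested.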

Additional observations from a re-analysis of the deposited data

Results flagged for a closer look

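In 26 of 392 groups of values, a group being 1 gene or 1 list sum in the rats of 1 group, a single rat lay far from the others. Its gap to the nearest rat, as a share of the group's range, passed Dixon's 95% critical value, which chance passes in about 1 in 20 groups. Their causes were not tested.

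Among intact males these were Mapk3 at 120.5 CPM in intact male 3 (others 111 to 113), Cadm3 at 235 CPM in intact male 6 (others 199 to 208), Mb at 1.11 CPM in intact male 2 (others 0 to 0.0709), Echs1 at 16.5 CPM in intact male 1 (others 0.0756 to 0.394), AABR07064724.1 at 6.81 CPM in intact male 5 (others 0.460 to 1.06), the summed list oligodendrocyte precursor at 614 CPM in intact male 1 (others 575 to 584), the summed list cholinergic transmission at 529.7 CPM in intact male 6 (others 403 to 439), the summed list neurofilaments and axon at 43119 CPM in intact male 6 (others 33674 to 36188), the summed list nuclear oxidative phosphorylation at 3378 CPM in intact male 3 (others 3166 to 3226) and the summed list circadian clock at 653 CPM in intact male 6 (others 673 to 681).

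Among GDX males they were Apcdd1 at 20.9 CPM in GDX male 4 (others 23.2 to 24.1), Mb at 0.810 CPM in GDX male 4 (others 0 to 0.196), Myh7 at 2.03 CPM in GDX male 4 (others 0.261 to 0.531), Hsd17b10 at 12.9 CPM in GDX male 1 (others 16.3 to 17.6) and the summed list TGF-beta and BMP at 477 CPM in GDX male 5 (others 386 to 406).

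Among intact females they were Osbpl6 at 113 CPM in intact female 1 (others 121 to 123), Echs1 at 13.6 CPM in intact female 6 (others 0.312 to 0.935), LOC100911422 at 22.4 CPM in intact female 6 (others 0.676 to 2.84), the summed list class I and II antigen presentation at 283 CPM in intact female 5 (others 350.0 to 378), the summed list potassium channels at 1985 CPM in intact female 1 (others 2137 to 2216) and the summed list cytosolic ribosomal proteins at 3635 CPM in intact female 4 (others 3238 to 3383).

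Among OVX females they were Zfp36l1 at 25.5 CPM in OVX female 5 (others 29.5 to 31.0), LOC100911422 at 2.81 CPM in OVX female 6 (others 0.673 to 1.28), Srd5a1 at 45.5 CPM in OVX female 5 (others 53.4 to 56.8), the summed list oligodendrocyte and myelin at 23955 CPM in OVX female 4 (others 26154 to 27362) and the summed list T and NK lymphocyte at 16.2 CPM in OVX female 5 (others 19.4 to 21.2).

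For 4 genes the change after removal differed between males and females by the interaction test. The log2 fold change in males minus that in females was 0.90 for Ahnak, 0.76 for Lama1, 0.81 for Olfml2a and 1.90 for Slc6a20.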

How the results depend on the processing

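The number of genes called depends on what else the fit holds, and so does the balance of higher and lower. The fragment class as a term gave 163 genes (82 higher, 81 lower), the short-fragment libraries alone 81 genes (59 higher, 22 lower) and the meningeal level as a term 119 genes (72 higher, 47 lower). Of 2 alternatives added after seeing the data, the erythroid level as a term gave 86 genes (61 higher, 25 lower), and class and meningeal level together gave 1 gene, with 1236 at an unadjusted p under 0.05. With class and meningeal level both in the fit, the common removal term therefore has almost no calls, and the cause was not tested. Scaling, filtering and the choice of test mattered less: 967 higher and 1044 lower with RLE factors, 1058 higher and 1126 lower with DESeq2, 976 higher and 1065 lower with the likelihood ratio test, 844 higher and 809 lower without a filter, 942 higher and 1131 lower with a filter at 1 CPM, 987 higher and 1034 lower without the most abundant gene, 844 higher and 1082 lower with RNA integrity as a term and 1177 higher and 1309 lower for the mean of the within-type effects.

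A replicate block, which treats rats of the same number as paired, gave 933 genes (414 higher, 519 lower). Correlation between rats of the same number was over 0.1 in 0 of 10 pairs, and 0 of 10 rats correlated best with the rat of their own number.

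Genes without overlap in both gonad types were 4 higher and 1 lower on CPM without TMM, and 103 higher and 86 lower in the short-fragment libraries, where fewer intact rats make overlap less frequent. The interaction had 1 call among members with the class term and 1 in the short-fragment libraries.

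Leaving out 1 rat at a time gave 1507 genes (without GDX male 5) to 2322 (without OVX female 4), 679 higher (without GDX male 5) to 1062 (without OVX female 4) and 812 lower (without intact male 6) to 1260 (without OVX female 4). Interaction calls among members ran from 0 by edgeR (without GDX male 4, GDX male 5, GDX male 6, intact female 3, OVX female 2, OVX female 5 or OVX female 6) to 127 (without GDX male 1), genes without overlap from 7 to 22 higher (without OVX female 5) and from 4 to 40 lower (without intact female 1), and the difference in total counts from 274348 (without OVX female 4) to 794362 (without OVX female 6).

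Some named genes were called with all rats but not in every fit that left out 1 rat. Calls were made for Atp5f1a in 10 of 22 (adjusted p up to 0.144, without intact male 3), Btg2 in 20 of 22 (adjusted p up to 0.104, without GDX male 4), Clec10a in 13 of 22 (adjusted p up to 0.137, without intact male 6), Echs1 in 20 of 22 (adjusted p up to 0.246, without intact male 1), Gabbr1 in 6 of 22 (adjusted p up to 0.192, without intact male 6), Hsd17b4 in 21 of 22 (adjusted p up to 0.105, without intact male 5), Igf1 in 9 of 22 (adjusted p up to 0.168, without GDX male 5), LOC100360117 in 11 of 22 (adjusted p up to 0.231, without intact female 1), LOC100911417 in 21 of 22 (adjusted p up to 0.144, without intact female 4), LOC100911422 in 17 of 22 (adjusted p up to 0.205, without intact female 6), Mb in 17 of 19 (adjusted p up to 0.102, without intact female 5), RT1-T24-4 in 14 of 22 (adjusted p up to 0.122, without OVX female 1) and Slc6a20 in 11 of 22 (adjusted p up to 0.148, without intact male 6).

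Some genes changed sign. With the erythroid term Alas2 was at -0.163, RatNP-3b at -0.0540 and Slc4a1 at -0.151. Echs1 was at 0.0146 with the class term and 0.0271 in the short-fragment libraries. With the meningeal term Igf1 was at -0.0175, Serping1 at -0.0119 and Slc6a20 at -0.0806. With class and meningeal level together Aldh1a2 was at -0.0736, F13a1 at -0.0141, Fbln1 at -0.00312, Igf1 at -0.206, Serping1 at -0.00768 and Slc6a20 at -0.351. The causes were not tested.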
